A study of Mus musculus with 9 samples.

Results

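The 49 genes described here encode regulators of chromatin, out of 51912 identifiers in the count table. They were looked up by symbol and fall into 10 groups by role: 5 ING proteins, 11 histone deacetylases (HDACs) in 3 groups, 7 genes of histone acetylation (6 acetyltransferases and the reader Brd2), 9 nucleosome remodellers of the SWI/SNF and ISWI families, 5 genes of Polycomb repressive complex 2 (PRC2) and its opposing demethylase, 4 histone methyltransferases, 5 subunits of HDAC complexes, and 3 enzymes of DNA methylation. All 49 were found and all 49 passed the filter on low counts. The samples were bulk RNA-seq libraries of pre-cDCs, the committed precursors of conventional dendritic cells (cDCs), sorted from BM (3 WT and 3 DNGR-1 KO samples) and from spleen (1 WT and 2 DNGR-1 KO samples). DNGR-1, encoded by Clec9a, is a receptor for dead cells. WT cells came from BL/6 mice of the CD45.1 allele. DNGR-1 KO cells were Clec9a Cre/Cre with the CD45.2 allele, although a field in the labels of the WT samples reads CD45.2. The labels give no treatment. Both genotypes developed together in lethally irradiated CD45.1/2 recipients given a mixture of the 2 marrows, and each sample pooled cells from a pair of mice. The KO allele was made in BL/N-derived embryonic stem cells and backcrossed to C57BL/6J. Because WT donors carried CD45.1 and DNGR-1 KO donors CD45.2, genotype and the CD45 congenic interval of chromosome 1 cannot be told apart in these samples. The study counted 6 mice in total for this sequencing, fewer than 9 separate pairs would need, so samples shared mice. If the 3 BM samples of a genotype came from different mice, the sharing ran across both genotypes and both tissues. The sources used here do not say which samples came from the same pair. The main fits treat the samples as independent, and p-values measure the spread between these samples without regard to shared mice.

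Chromatin regulators change how tightly DNA is wrapped on histones and which chemical marks the histones carry. Acetyltransferases add acetyl groups, which open chromatin, and HDACs remove them. ING proteins carry a PHD finger that reads trimethylated lysine 4 of histone H3, and bring either HDAC or acetyltransferase complexes to it. PRC2 methylates lysine 27 of histone H3 at silent genes, and SWI/SNF complexes use ATP to move nucleosomes. Dendritic cell precursors divide in BM, leave through the blood and complete their differentiation in peripheral organs.

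The total count per sample was 17103806 to 23722298. Levels are given as CPM, the counts of a gene scaled to a common library size by the TMM method. Clec9a was counted 905 to 2459 times in WT samples and 0 or 1 times in DNGR-1 KO samples, so that genotype labels and counts matched in all 9. All 11 genes of the pre-cDC and cDC marker list exceeded 3 counts in every sample, Flt3 and Zbtb46 among them. Spleen samples also held RNA of other cells. The summed level of 7 T cell genes was 1.12 to 9.44 CPM in BM and 709 to 3404 CPM in spleen, with all 7 higher in spleen, although CD3 was in the lineage gate. Of 8 NK cell genes, 6 were higher in spleen, with sums of 29.2 to 87.5 CPM in BM and 596 to 1311 CPM in spleen. Ncr1 was at 0 counts in WT spleen, and Klrb1c at 0 in WT spleen and DNGR-1 KO spleen sample 2. Klrd1, the most counted of the list, had 8675 counts in WT spleen and 8113 and 13665 in DNGR-1 KO spleen. It also had 563 to 1747 counts in BM. Of 5 erythroid genes, 3 were higher and 1 lower in spleen, with sums of 83.0 to 530 CPM in BM and 5082 to 30481 CPM in spleen. Neutrophil genes summed to 830 to 2586 CPM in BM and 0 to 0.888 CPM in spleen, with Elane, Ly6g and S100a8 at 0 in all 3 spleen samples, and 5 of 6 were lower there. B cell genes did not pass the threshold (0 of 6), and Pax5 and Ebf1 were at 0 in all 3 spleen samples. All 10 proliferation genes fell, from sums of 3536 to 4350 CPM in BM to 268 to 490 CPM in spleen. In these bulk samples, fewer cells of a type and less RNA per cell cannot be told apart. The WT spleen sample stood apart: among genes that reached 100 counts in all 8 other samples, 3.68% had 3 counts or fewer in it, against 0.903% and 0.935% for those of DNGR-1 KO spleen and 0% for each BM sample.

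Per kilobase of exon, the most abundant of the 49 genes in BM was Rbbp7 (148 CPM per kb, mean of 6 samples), a histone-binding subunit of several HDAC complexes, followed by the deacetylase Hdac1 (79.8 CPM per kb) and by Rbbp4 (58.5 CPM per kb), the paralogue of Rbbp7. The acetyltransferase Kat7 came next (29.6 CPM per kb). At the other end, Hdac11, the class IV deacetylase, averaged 0.216 CPM per kb, with 4 to 41 counts in the BM samples, and Ing2 averaged 1.22 CPM per kb. Among the ING genes, Ing4 (14.3 CPM per kb), Ing3 (11.7 CPM per kb) and Ing1 (10.4 CPM per kb) lay close together. Among the HDAC genes, Hdac1 was followed by Hdac3 (23.4 CPM per kb) and Hdac10 (18.0 CPM per kb), and the highest of class IIa was Hdac5 (7.37 CPM per kb). This order depends on the length used, which covers all annotated exons of a gene. By CPM alone, Rbbp4 (mean 511 CPM in BM) lay above Rbbp7 (429 CPM) and Hdac1 (275 CPM).

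**Figure D1:**
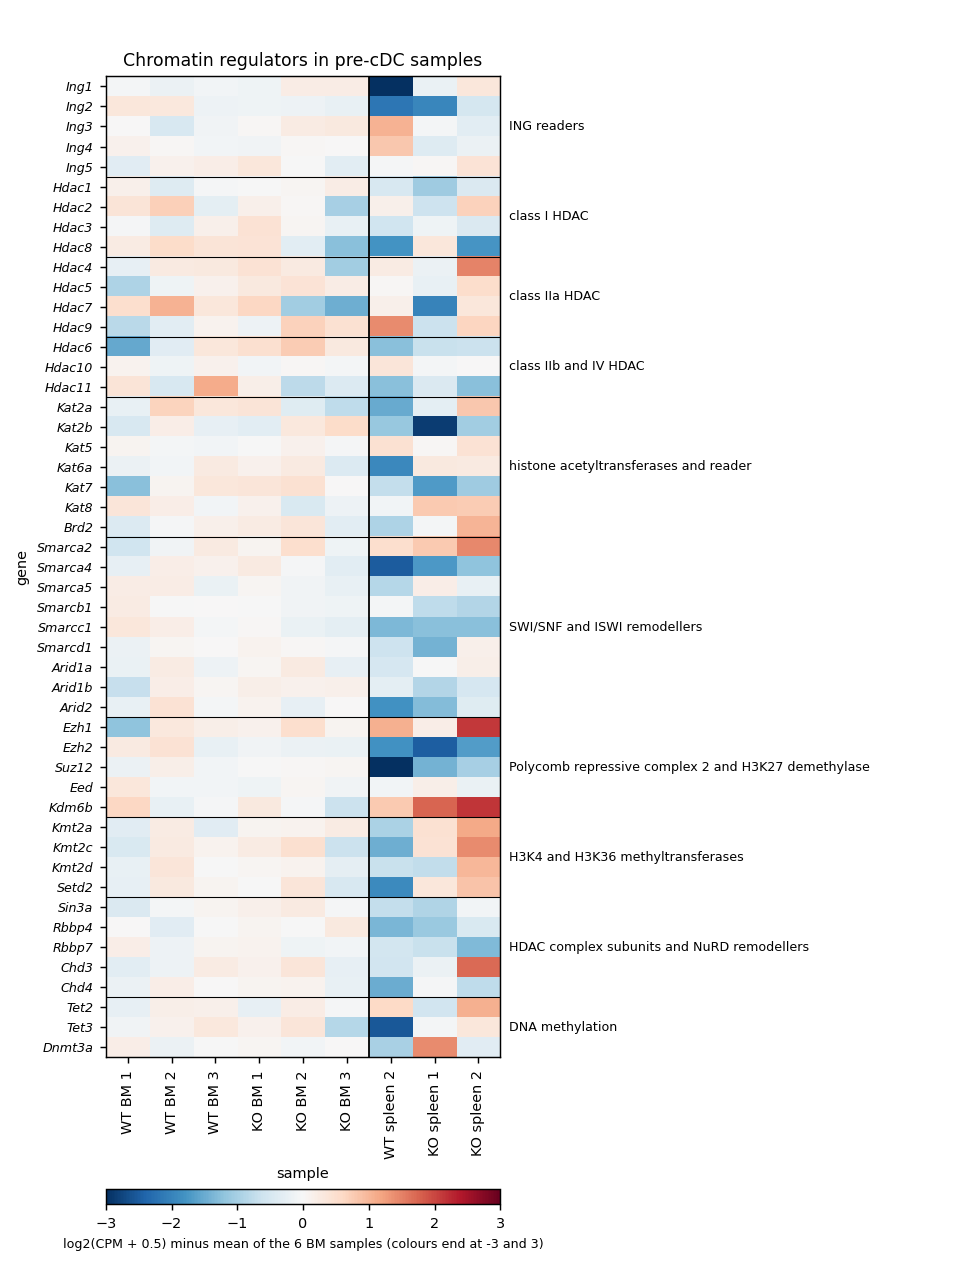
Level of each of the 49 genes (rows, grouped by role) in each of the 9 samples (columns) as log2(CPM + 0.5) minus the mean of the 6 BM samples, in colours that end at -3 and 3. The BM columns are pale for most genes, the 3 spleen columns are more strongly coloured and differ from each other, and the cells of Ing1 and Suz12 in the WT spleen sample are at the blue end.

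The tissue comparison asked how pre-cDCs in spleen differ from those in BM, with genotype as a covariate over all 9 samples (quasi-likelihood test of edgeR, p-values adjusted by Benjamini-Hochberg over 13468 genes, threshold 0.05). Of the 49 chromatin regulators, 6 passed (12.2%), which is below the 19.5% of all genes tested. The demethylase gene Kdm6b was higher in spleen (1 of 49, against 7.28% of all genes). The PRC2 methyltransferase gene Ezh2, the remodeller genes Smarca4 and Smarcc1, and the histone chaperone genes Rbbp4 and Rbbp7 were lower in spleen (5 of 49, 10.2%, against 12.3% of all genes). A further 10 had an unadjusted p under 0.05 without passing the adjustment, 8 lower and 2 higher in spleen, so that 16 of 49 had an unadjusted p under 0.05 against 33.5% of all genes. None of the 5 ING and none of the 11 HDAC genes passed. The median log2 difference, spleen minus BM, was -0.22 over the 49 genes and -0.18 over all genes tested. By level alone, 10 of the 49 genes were lower in every spleen than in every BM sample (17.7% of all genes) and 2, Smarca2 and Kdm6b, were higher (9.04% of all genes). In DNGR-1 KO samples alone, with 2 spleen and 3 BM samples, 4 of 48 genes passed, against 9.95% of all genes: Kdm6b was higher, and Kat7, Smarca4 and Ezh2 were lower in spleen. With the replicate number as a block, 3 of 49 passed, against 9.25% of all genes: Ezh2, Smarca4 and Smarcc1 were lower, and Kdm6b, Rbbp4 and Rbbp7 lost their calls.

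**Figure D2:**
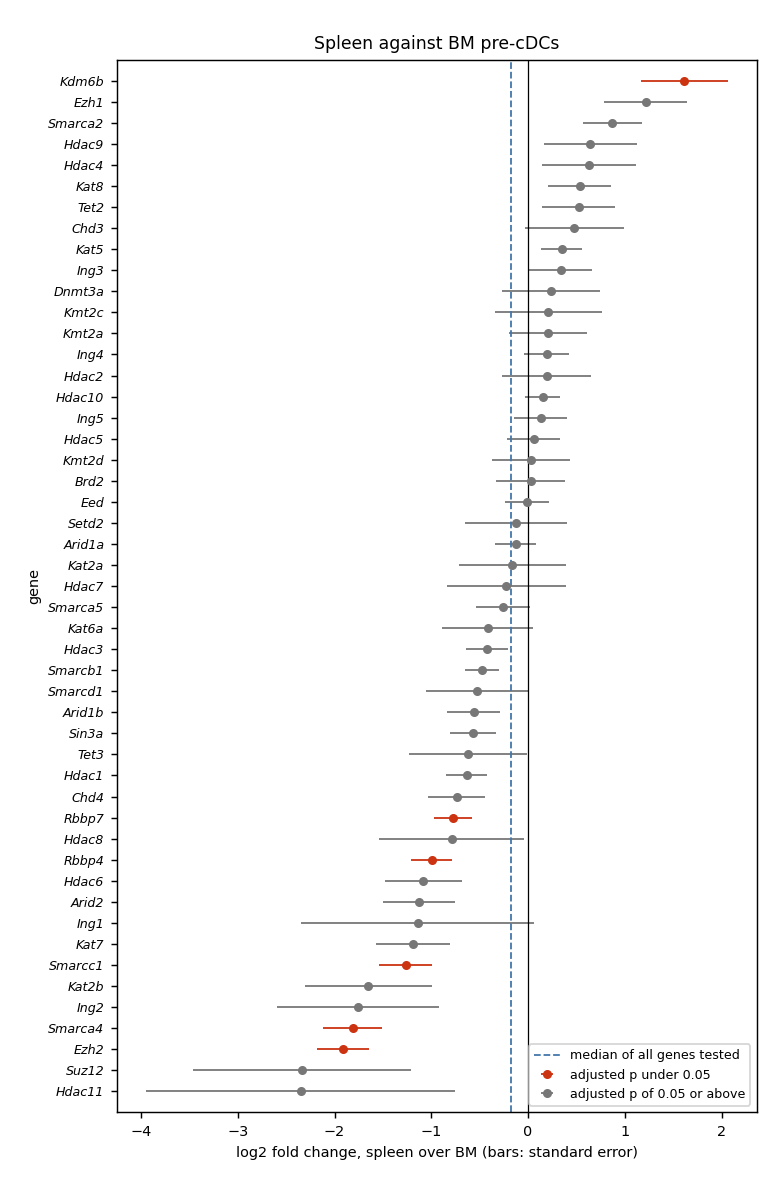
Log2 fold change of each of the 49 genes, spleen over BM (horizontal axis, points with standard errors), ordered by value, with the median of all genes tested as a dashed line. The 6 genes past the threshold are in red, 5 on the left and Kdm6b at the top right. Suz12, Ing1 and Hdac11 have the widest bars.

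In the PRC2 group, Ezh2, the gene of the catalytic subunit, fell in spleen, and Ezh1, Suz12 and Eed did not pass the threshold. Rbbp4 and Rbbp7, whose products PRC2 shares with HDAC complexes, also fell and are described with those complexes. Ezh2 was measured at 96.3, 108 and 68.8 CPM in WT BM and 74.9, 70.8 and 69.96 CPM in DNGR-1 KO BM. It was at 22.5 CPM in WT spleen and 14.1 and 24.9 CPM in DNGR-1 KO spleen, so that every spleen sample lay below every BM sample. Between tissues Ezh2 differed by a log2 value of -1.92 (SE 0.27, adjusted p = 0.00167), and it was -1.87 (SE 0.35, adjusted p = 0.0333) in DNGR-1 KO samples alone. Ezh1, the paralogue that takes the place of Ezh2 in PRC2, had the opposite sign without passing the threshold. Ezh1 was measured at 17.3, 50.6 and 45.6 CPM in WT BM and 44.4, 57.3 and 42.5 CPM in DNGR-1 KO BM, and at 84.9 CPM in WT spleen and 46.5 and 178 CPM in DNGR-1 KO spleen. Ezh1 differed by 1.22 (SE 0.43, adjusted p = 0.0766). It passed without DNGR-1 KO spleen sample 1 (log2 1.57, adjusted p = 0.0189), the spleen sample with the lowest Ezh1, at a level inside the BM range. Without DNGR-1 KO spleen sample 2, the highest, Ezh1 differed by 0.64 (adjusted p = 0.311).

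Suz12, a core subunit without which PRC2 is not assembled, was at 37.1, 47.6 and 39.3 CPM in WT BM and 41.2, 42.8 and 43.3 CPM in DNGR-1 KO BM. Its spleen levels were 0.0591 CPM in WT spleen and 15.2 and 20.8 CPM in DNGR-1 KO spleen. All 3 spleen samples were below BM, but the WT spleen sample held a single count, and the log2 difference was -2.34 (SE 1.12, adjusted p = 0.182). Without the WT spleen sample it was -1.22 with an adjusted p of 0.0259. Eed, the subunit that binds the methylated histone, differed little: it averaged 47.7 ± 6.35 CPM (SD, n = 6) in BM and 46.3 ± 6.51 CPM (SD, n = 3) in spleen, with a log2 difference of -0.01 (SE 0.23, adjusted p = 0.983). Kdm6b, which removes the mark that PRC2 writes, was at 17.7, 9.74 and 11.2 CPM in WT BM and 14.1, 11.2 and 7.06 CPM in DNGR-1 KO BM. In spleen it was at 19.9 CPM in WT spleen and 39.5 and 51.9 CPM in DNGR-1 KO spleen, and the groups did not overlap, with the WT spleen sample the closest to BM. Kdm6b rose by a log2 value of 1.61 (SE 0.45, adjusted p = 0.0334). The call was lost, with adjusted p of 0.0578 to 0.0795, when any of WT BM samples 2 and 3, the 3 DNGR-1 KO BM samples or DNGR-1 KO spleen sample 2 was left out, with log2 differences of 1.34 to 1.71. With the replicate block Kdm6b was at 1.58 with an adjusted p of 0.118.

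Of the 9 remodellers, 2 fell in spleen and 8 had a negative difference, with a median of -0.53. Smarca4 encodes BRG1, an ATPase of SWI/SNF complexes. Its levels were 92.9, 126 and 121 CPM in WT BM and 134, 107 and 88.5 CPM in DNGR-1 KO BM. Its spleen levels were 19.3 CPM in WT spleen and 33.1 and 47.2 CPM in DNGR-1 KO spleen, all below the lowest BM sample. Smarca4 differed by -1.81 (SE 0.30, adjusted p = 0.0038). Smarca2 encodes BRM, the alternative ATPase, and was at 16.0, 22.9 and 29.6 CPM in WT BM and 26.0, 35.2 and 22.5 CPM in DNGR-1 KO BM. In spleen Smarca2 was at 35.4 CPM in WT spleen and 42.7 and 67.6 CPM in DNGR-1 KO spleen, above every BM sample, although the WT spleen sample exceeded the highest BM sample only slightly. Its log2 difference was 0.87 (SE 0.31, adjusted p = 0.0755), not past the threshold.

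Smarcc1 encodes BAF155, a scaffold subunit of SWI/SNF. It was at 50.2, 45.6 and 38.0 CPM in WT BM and 40.6, 34.9 and 32.4 CPM in DNGR-1 KO BM. The 3 spleen samples were close together, at 15.3 CPM in WT spleen and 16.5 and 16.4 CPM in DNGR-1 KO spleen. For Smarcc1 the log2 difference was -1.27 (SE 0.27, adjusted p = 0.0109), and in DNGR-1 KO samples alone it was -1.11 (SE 0.34, adjusted p = 0.0913). Smarcc1 shares 123 exon bases with Dhx30 on the opposite strand, whose log2 difference was -0.34 (SE 0.38, adjusted p = 0.605), and whether counting used the strand is not stated in the sources used here. Arid2, a subunit of the PBAF form of SWI/SNF, was also below every BM sample in all 3 spleen samples (38.3 to 61.8 CPM in BM, 12.6 to 35.2 CPM in spleen), with a log2 difference of -1.13 (SE 0.38, adjusted p = 0.0634). It passed without DNGR-1 KO spleen sample 2 (log2 -1.57, adjusted p = 0.0115), and without the WT spleen sample it was at -0.71 (adjusted p = 0.221). Arid1a and Arid1b, which define the canonical BAF form, had log2 differences of -0.13 (SE 0.21) and -0.56 (SE 0.27). Smarcb1, a core subunit, was at 168 to 216 CPM in BM and at 176 CPM in WT spleen and 108 and 99.3 CPM in DNGR-1 KO spleen, with a log2 difference of -0.48 (SE 0.18, adjusted p = 0.0864). The WT spleen sample lay within the BM range, and without it Smarcb1 passed (log2 -0.72, adjusted p = 0.0451). Smarcd1, an accessory subunit, and the ISWI ATPase gene Smarca5 did not pass, with log2 differences of -0.53 (SE 0.53) and -0.26 (SE 0.28).

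Rbbp4 and Rbbp7 encode WD-repeat proteins that bind histones and are shared by the SIN3 and NuRD deacetylase complexes and by PRC2. Rbbp4 was at 508, 402 and 501 CPM in WT BM and 534, 505 and 617 CPM in DNGR-1 KO BM. Spleen levels of Rbbp4 were 196 CPM in WT spleen and 234 and 371 CPM in DNGR-1 KO spleen, below every BM sample. Rbbp4 differed by a log2 value of -0.998 (SE 0.21, adjusted p = 0.0101), and without the WT spleen sample it was -0.85 with an adjusted p of 0.0577. The replicate block gave -0.94 for Rbbp4 with an adjusted p of 0.0643. Rbbp7 was at 487, 385 and 452 CPM in WT BM and 458, 393 and 401 CPM in DNGR-1 KO BM. Those of Rbbp7 in spleen were 292 CPM in WT spleen and 268 and 170.0 CPM in DNGR-1 KO spleen, also without overlap. Its log2 difference was -0.78 (SE 0.20, adjusted p = 0.0222), and without DNGR-1 KO BM sample 1 it was -0.71 with an adjusted p of 0.0563. For Rbbp7 the replicate block gave -0.73 with an adjusted p of 0.0751. In DNGR-1 KO samples alone the log2 differences were -0.85 (SE 0.27, adjusted p = 0.0993) for Rbbp4 and -0.91 (SE 0.27, adjusted p = 0.0811) for Rbbp7. Rbbp7 shares 174 exon bases with Txlng on the other strand, whose log2 difference was positive (0.84, SE 0.34, adjusted p = 0.117).

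Sin3a, the scaffold of the SIN3 complex, ranged from 61.7 to 100.1 CPM in BM and from 44.0 to 78.5 CPM in spleen, with a log2 difference of -0.57 (SE 0.23, adjusted p = 0.122). It passed without DNGR-1 KO spleen sample 2 (log2 -0.80, adjusted p = 0.0423), and without DNGR-1 KO spleen sample 1 it was at -0.38 (adjusted p = 0.267). Chd4, the main NuRD ATPase gene, was at 94.5 to 127 CPM in BM and at 39.1 CPM in WT spleen and 106 and 64.3 CPM in DNGR-1 KO spleen, with DNGR-1 KO spleen sample 1 inside the BM range. Its log2 difference was -0.74 (SE 0.29, adjusted p = 0.112), and without that sample it was -1.09 with an adjusted p of 0.0180. Without the WT spleen sample, the lowest, Chd4 was at -0.34 (adjusted p = 0.440). Chd3, its paralogue, was at 14.7 to 23.8 CPM in BM and at 12.2 CPM in WT spleen and 16.2 and 61.2 CPM in DNGR-1 KO spleen, so that DNGR-1 KO spleen sample 2 alone exceeded the BM range.

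**Figure D3:**
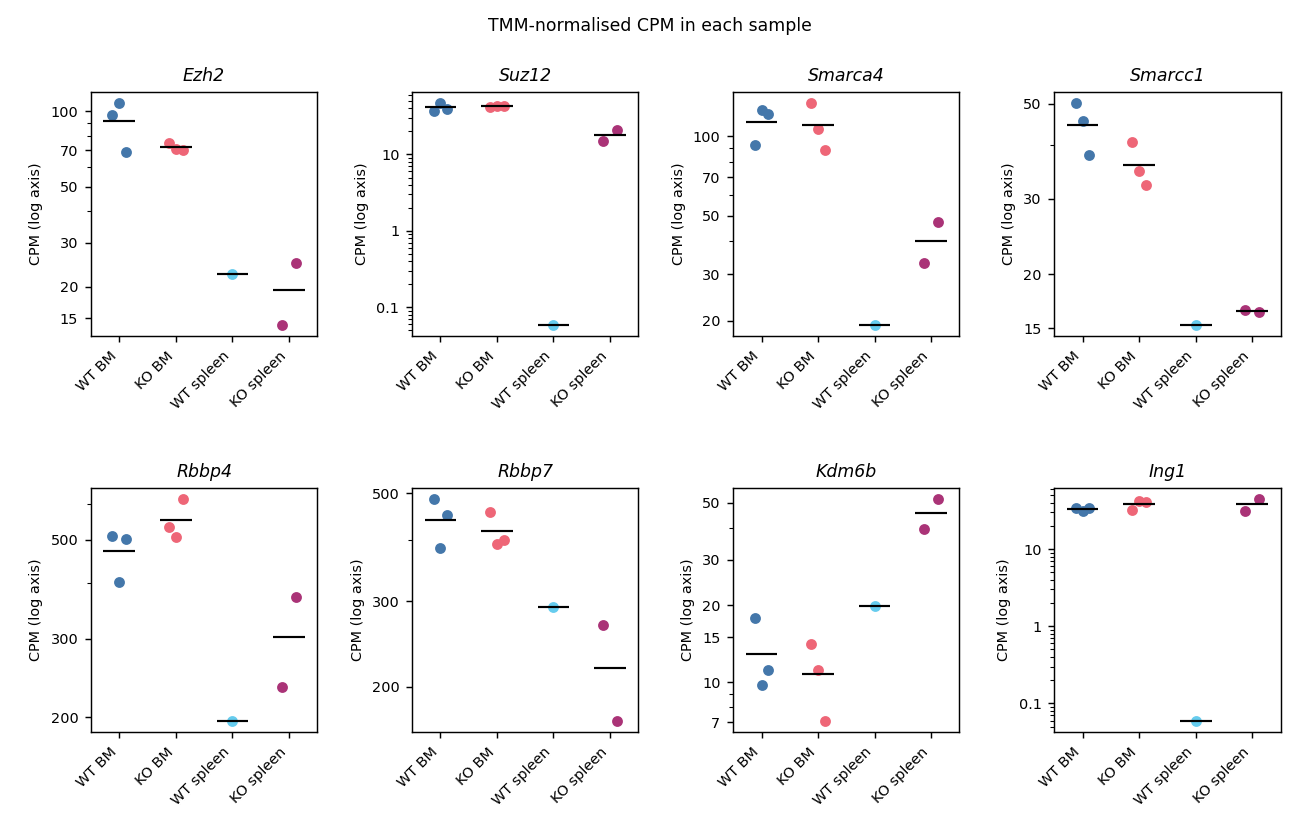
CPM on log axes of 8 genes in each sample, by genotype and tissue, with a bar at the mean of each group (WT spleen is 1 sample). Ezh2, Smarca4, Smarcc1, Rbbp4 and Rbbp7 lie lower in all 3 spleen samples than in all 6 BM samples, Kdm6b lies higher, and Suz12 and Ing1 are at 0.0591 CPM in the WT spleen sample only.

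Because 5 genes were lower in spleen together, the 200 bases before the RefSeq start of each are shown (GRCm38.p6, RefSeq), in lower case with the CCAAT box letters, CCAAT or its reverse complement ATTGG, in capitals. They are those of Ezh2 (chr6:47595031-47595230, minus strand, 66% G or C), Rbbp4 (chr4:129335371-129335570, minus strand, 70% G or C), Rbbp7 (chrX:162760172-162760371, plus strand, 75.5% G or C), Smarca4 (chr9:21615969-21616168, plus strand, 71% G or C) and Smarcc1 (chr9:110131824-110132023, plus strand, 66.5% G or C), where the median over all windows was 53% G or C. A RefSeq start can lie inside the gene's span in the annotation used for symbols. That was so for Smarcc1, whose span begins at chr9:110117708, and for Ezh2, whose span on the minus strand begins at chr6:47595341. The windows of Rbbp4, Rbbp7 and Smarca4 lie outside the span. Which start these cells use was not tested.
Ezh2: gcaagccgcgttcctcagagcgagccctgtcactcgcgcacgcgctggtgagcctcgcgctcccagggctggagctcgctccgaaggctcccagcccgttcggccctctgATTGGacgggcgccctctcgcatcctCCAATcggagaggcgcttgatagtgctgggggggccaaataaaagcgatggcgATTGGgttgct
Rbbp4: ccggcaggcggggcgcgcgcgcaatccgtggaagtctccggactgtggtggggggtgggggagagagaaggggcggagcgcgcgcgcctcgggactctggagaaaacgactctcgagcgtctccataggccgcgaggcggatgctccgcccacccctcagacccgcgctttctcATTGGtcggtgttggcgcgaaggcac
Rbbp7: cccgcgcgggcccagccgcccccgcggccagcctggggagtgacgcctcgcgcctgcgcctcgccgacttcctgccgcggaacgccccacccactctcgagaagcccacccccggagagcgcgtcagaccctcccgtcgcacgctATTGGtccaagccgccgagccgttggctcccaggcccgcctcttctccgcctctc
Smarca4: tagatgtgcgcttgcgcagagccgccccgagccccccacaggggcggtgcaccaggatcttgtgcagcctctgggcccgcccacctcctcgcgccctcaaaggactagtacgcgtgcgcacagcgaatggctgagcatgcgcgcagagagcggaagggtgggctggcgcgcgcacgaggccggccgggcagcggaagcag
Smarcc1: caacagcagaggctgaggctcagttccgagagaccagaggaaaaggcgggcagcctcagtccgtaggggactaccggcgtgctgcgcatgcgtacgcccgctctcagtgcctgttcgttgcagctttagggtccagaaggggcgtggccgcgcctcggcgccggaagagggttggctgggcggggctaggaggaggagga
Ezh2 held 3 matches, Rbbp4 and Rbbp7 held 1 each, and Smarca4 and Smarcc1 held 0. Of the 42 regulators with a RefSeq window, 20 held CCAAT on either strand, against 29.3% of all windows of the same length. The E2F letters TTTCCCGC, TTTGGCGC, TTTCGCGC or TTTGCCGC, on either strand, stood in the windows of 4 of the 42 (Ing3, Kat2a, Smarcd1 and Arid1a) and in 1.58% of all windows. The CHR letters TTTGAA or TTCGAA stood in 6 of the 42 and in 13.4% of all windows. Neither was found in the 5 printed windows, and no motif searched contains another. These counts describe letters and not binding.

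The ING genes showed no common direction between tissues: 0 of 5 passed, 3 had a positive and 2 a negative difference, and the WT spleen sample stood away from the DNGR-1 KO spleen samples for 3 of them. Ing1, a reader that joins the SIN3 deacetylase complex, was at 34.0, 31.0 and 33.5 CPM in WT BM and 32.4, 41.5 and 41.01 CPM in DNGR-1 KO BM, the range within BM being narrow. In spleen it was at 0.0591 CPM in WT spleen and 31.0 and 44.8 CPM in DNGR-1 KO spleen: both DNGR-1 KO samples were close to the BM range, whereas the WT sample held 1 count. The log2 difference, -1.14 (SE 1.205, adjusted p = 0.576), rested on the WT sample and vanished without it (log2 0.00083). Ing2, its paralogue in the same complex, was scarce, at 4.73, 4.66 and 3.18 CPM in WT BM and 3.28, 3.20 and 3.005 CPM in DNGR-1 KO BM. In spleen it was at 0.414 CPM in WT spleen and 0.555 and 2.37 CPM in DNGR-1 KO spleen, from 7, 10 and 56 counts, below every BM sample. The log2 difference of Ing2 was -1.76 (SE 0.84, adjusted p = 0.177), and without DNGR-1 KO spleen sample 2 it was -2.86 with an adjusted p of 0.0202. Without the WT spleen sample it was -1.09 (adjusted p = 0.383).

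Ing3, a subunit of the NuA4 acetyltransferase complex, was at 55.4, 39.5 and 50.8 CPM in WT BM and 56.7, 65.97 and 67.7 CPM in DNGR-1 KO BM. In spleen it was at 115 CPM in WT spleen and 53.0 and 44.4 CPM in DNGR-1 KO spleen, so that the WT sample was the highest of all 9. Ing4, which joins the Kat7 acetyltransferase, was at 82.4, 77.8 and 71.3 CPM in WT BM and 69.9, 77.2 and 76.6 CPM in DNGR-1 KO BM. In spleen Ing4 was at 134 CPM in WT spleen and 57.4 and 66.6 CPM in DNGR-1 KO spleen, and the WT sample was again the highest. The log2 differences between tissues were 0.34 for Ing3 and 0.19 for Ing4 over all samples, and they were -0.36 and -0.25 without the WT spleen sample. Ing4 shares 1855 exon bases on its own strand with the noncoding transcript Gm44597, which rose in spleen (log2 2.10, SE 0.53, adjusted p = 0.0231) from 1.69 to 4.62 CPM in BM to 8.38 to 19.5 CPM, so that the division of reads between them is uncertain. Ing5, which joins Kat6a or Kat7, was at 26.5, 37.0 and 38.9 CPM in WT BM and 42.8, 33.4 and 27.2 CPM in DNGR-1 KO BM, and at 32.8 CPM in WT spleen and 34.5 and 45.3 CPM in DNGR-1 KO spleen, with overlapping ranges and a log2 difference of 0.13 (SE 0.27, adjusted p = 0.801).

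No HDAC gene passed the threshold between tissues, and the smallest adjusted p of the 11 was 0.0632, for Hdac1. Hdac1, the class I enzyme of the SIN3 and NuRD complexes, was at 304, 207 and 266 CPM in WT BM and 269, 284 and 320.0 CPM in DNGR-1 KO BM. In spleen Hdac1 was at 195 CPM in WT spleen and 130.3 and 202 CPM in DNGR-1 KO spleen, all below the lowest BM sample, with a log2 difference of -0.64 (SE 0.21, adjusted p = 0.0632). Hdac1 passed in 4 of 21 alternatives: with DESeq2 (adjusted p = 0.0491), with limma-voom (0.0472), with total counts only (0.0416) and without the genotype term (0.0430). Hdac2, its paralogue, was at 25.1, 31.6 and 15.4 CPM in WT BM and 21.3, 19.3 and 9.21 CPM in DNGR-1 KO BM, and at 21.1 CPM in WT spleen and 12.2 and 31.1 CPM in DNGR-1 KO spleen, a range inside that of BM. Hdac3, the enzyme of the NCoR and SMRT corepressors, was at 90.5, 71.2 and 104 CPM in WT BM and 125, 97.8 and 79.5 CPM in DNGR-1 KO BM. In spleen Hdac3 was at 61.6 CPM in WT spleen and 84.6 and 68.8 CPM in DNGR-1 KO spleen, with a log2 difference of -0.42 (SE 0.22, adjusted p = 0.207). Hdac8, a class I enzyme that acts on cohesin, was at 16.5, 20.5 and 18.4 CPM in WT BM and 18.6, 11.1 and 5.51 CPM in DNGR-1 KO BM, and at 3.67 CPM in WT spleen and 17.6 and 3.72 CPM in DNGR-1 KO spleen. DNGR-1 KO spleen sample 1 lay inside the BM range and the other spleen samples below it, and without DNGR-1 KO spleen sample 1 the log2 difference was -1.95 (adjusted p = 0.0462), against -0.79 with it. Without the WT spleen sample it was -0.115 (adjusted p = 0.936).

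Class IIa enzymes, signal-responsive corepressors that shuttle between nucleus and cytoplasm, varied widely among samples. Hdac4 was at 16.0, 23.0 and 23.5 CPM in WT BM and 25.8, 23.0 and 8.96 CPM in DNGR-1 KO BM, and at 22.7 CPM in WT spleen and 16.8 and 54.5 CPM in DNGR-1 KO spleen. DNGR-1 KO spleen sample 2 exceeded all others. Hdac5 was at 32.6, 56.7 and 68.0 CPM in WT BM and 75.7, 82.4 and 73.1 CPM in DNGR-1 KO BM. In spleen Hdac5 was at 63.3 CPM in WT spleen and 53.3 and 89.6 CPM in DNGR-1 KO spleen. Hdac7, the class IIa member best known from lymphocytes and endothelium, was at 44.7, 64.9 and 39.6 CPM in WT BM and 48.6, 14.9 and 10.97 CPM in DNGR-1 KO BM, and at 34.8 CPM in WT spleen and 7.44 and 39.4 CPM in DNGR-1 KO spleen. Its lowest values were those of DNGR-1 KO BM samples 2 and 3 and DNGR-1 KO spleen sample 1. Hdac9 was at 14.95, 21.3 and 28.7 CPM in WT BM and 23.9, 43.3 and 36.5 CPM in DNGR-1 KO BM, and at 71.3 CPM in WT spleen and 16.7 and 41.9 CPM in DNGR-1 KO spleen, with the WT spleen sample the highest. Their log2 differences, spleen minus BM, were 0.63 (SE 0.49, adjusted p = 0.422) for Hdac4 and 0.06 (SE 0.27, adjusted p = 0.914) for Hdac5. They were -0.22 (SE 0.61, adjusted p = 0.85) for Hdac7 and 0.64 (SE 0.48, adjusted p = 0.406) for Hdac9.

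Hdac6, the cytoplasmic tubulin deacetylase, was at 12.8, 29.7 and 48.4 CPM in WT BM and 52.9, 65.4 and 46.9 CPM in DNGR-1 KO BM, and at 15.7 CPM in WT spleen and 23.8 and 24.1 CPM in DNGR-1 KO spleen. WT BM sample 1 was the lowest of all 9 and overlapped spleen. The log2 difference of Hdac6 was -1.08 (SE 0.40, adjusted p = 0.089), and without WT BM sample 1 it was -1.22 (adjusted p = 0.0189). Hdac6 also passed with DESeq2 (adjusted p = 0.0468). Hdac10, a polyamine deacetylase, was the steadiest HDAC in BM, at 65.0, 55.5 and 66.4 CPM in WT BM and 57.7, 61.7 and 58.3 CPM in DNGR-1 KO BM. In spleen Hdac10 was at 78.2 CPM in WT spleen and 57.8 and 61.1 CPM in DNGR-1 KO spleen, with a log2 difference of 0.15 (SE 0.18, adjusted p = 0.63). Hdac11 had 18, 7 and 41 counts in WT BM, 19, 4 and 8 counts in DNGR-1 KO BM, 0 counts in WT spleen, and 7 and 0 counts in DNGR-1 KO spleen. At 3 counts, the level below which a sample at 0 can lie is 0.126 to 0.175 CPM, and no fold is given for Hdac11. Its test, with an adjusted p of 0.358, passed without DNGR-1 KO spleen sample 1 (adjusted p = 0.0306).

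Of the 7 genes of histone acetylation, 0 passed between tissues. Kat7 (HBO1), the acetyltransferase of Ing4 and Ing5 complexes, was at 64.1, 161 and 194 CPM in WT BM and 198, 211 and 155 CPM in DNGR-1 KO BM. In spleen Kat7 was at 92.9 CPM in WT spleen and 46.9 and 73.3 CPM in DNGR-1 KO spleen, overlapping BM through WT BM sample 1 alone. The log2 difference of Kat7 was -1.19 (SE 0.38, adjusted p = 0.0559). It was -1.63 (SE 0.29, adjusted p = 0.031) in DNGR-1 KO samples alone, and -1.36 without WT BM sample 1 (adjusted p = 0.0088). Kat2b (PCAF), a SAGA acetyltransferase, was at 6.86, 11.3 and 8.26 CPM in WT BM and 7.78, 12.3 and 14.5 CPM in DNGR-1 KO BM. In spleen Kat2b was at 4.20 CPM in WT spleen and 0.944 and 4.48 CPM in DNGR-1 KO spleen, all below BM, with a log2 difference of -1.65 (SE 0.65, adjusted p = 0.109). Kat2a (GCN5), its paralogue, overlapped between tissues (28.8 to 78.1 CPM in BM, 16.97 to 86.6 CPM in spleen). Kat8 (MOF), which acetylates lysine 16 of histone H4, had 21.1 to 37.4 CPM in BM and 27.2 CPM in WT spleen and 50.6 and 49.4 CPM in DNGR-1 KO spleen, with a log2 difference of 0.53 (SE 0.33, adjusted p = 0.303). Kat5 (TIP60) averaged 41.6 ± 2.32 CPM (SD, n = 6) in BM and 52.1 ± 8.22 CPM (SD, n = 3) in spleen, but shares 426 exon bases with Rnaseh2c on the opposite strand. Kat6a averaged 39.2 ± 7.19 CPM (SD, n = 6) in BM and 34.6 ± 21.6 CPM (SD, n = 3) in spleen, its WT spleen sample being the lowest of all at 9.70 CPM. Brd2, a BET reader of acetylated histones, averaged 93.2 ± 19.5 CPM (SD, n = 6) in BM and 107 ± 70.3 CPM (SD, n = 3) in spleen, and shares 360 exon bases with H2-DMa, which was counted far more often.

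None of the 4 methyltransferase genes and none of the 3 DNA methylation genes passed, and their spleen values spread widely around those of BM. Setd2, which trimethylates lysine 36 of histone H3, was at 35.3 to 63.8 CPM in BM and at 12.7 CPM in WT spleen and 62.2 and 89.9 CPM in DNGR-1 KO spleen. Kmt2c, an enhancer H3K4 methyltransferase, was at 22.0 to 48.9 CPM in BM and at 12.2 CPM in WT spleen and 47.0 and 93.6 CPM in DNGR-1 KO spleen. For both, the WT spleen sample was below all BM samples and DNGR-1 KO spleen sample 2 above them. Kmt2a (MLL1) and Kmt2d behaved likewise, at 12.4 CPM in WT spleen and 33.8 and 54.1 CPM in DNGR-1 KO spleen for Kmt2a and 47.7 CPM in WT spleen and 45.24 and 153 CPM in DNGR-1 KO spleen for Kmt2d, although DNGR-1 KO spleen sample 1 was the lowest for Kmt2d. Tet2 and Tet3 oxidise methylcytosine. Tet2 was at 19.4 to 27.2 CPM in BM and at 35.2 CPM in WT spleen and 15.4 and 48.97 CPM in DNGR-1 KO spleen, and Tet3 at 21.7 to 51.3 CPM in BM and at 6.33 CPM in WT spleen and 38.1 and 50.2 CPM in DNGR-1 KO spleen. Dnmt3a, the de novo methyltransferase, was steady in BM (23.6 to 30.8 CPM) and was at 13.4 CPM in WT spleen and 72.0 and 20.9 CPM in DNGR-1 KO spleen. The log2 differences of these 7 genes ranged from -0.62 (Tet3, SE 0.61) to 0.52 (Tet2, SE 0.38).

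A ratio of 2 genes within a sample does not depend on the scaling of the library. For 8 pairs of paralogues that take the same place in a complex or share an activity, the log2 ratio of CPM per exon length was therefore taken in each sample, as a description with no test. The ratio of Ezh2 to Ezh1 was 0.46 to 2.63 in BM and -2.68 to -1.57 in spleen. It was positive in all 6 BM samples and negative in all 3 spleen samples, so that Ezh2 was the more abundant of the pair in BM and Ezh1 in spleen. The ratio of Smarca4 to Smarca2 was 2.74 to 3.68 in BM and 0.26 to 0.77 in spleen, without overlap. Its positive sign in spleen depends on the division by exon length. By CPM alone, Smarca2 exceeded Smarca4 in WT spleen (35.4 against 19.3 CPM). The same held in DNGR-1 KO spleen samples 1 (42.7 against 33.1 CPM) and 2 (67.6 against 47.2 CPM). The other 6 ratios overlapped between tissues. For Rbbp4 to Rbbp7, which both fell, the mean log2 ratio was -1.34 ± 0.22 (SD, n = 6) in BM and -1.47 ± 0.89 (SD, n = 3) in spleen. For Hdac1 to Hdac2 it was 3.09 to 5.50 in BM and 3.07 to 3.79 in spleen. For Kat2a to Kat2b it was 1.47 to 3.53 in BM and 2.499 to 5.90 in spleen, with both DNGR-1 KO spleen samples above BM and the WT spleen sample inside the BM range. For Tet2 to Tet3 it was -1.16 to 0.06 in BM and -1.33 to 2.46 in spleen, the WT spleen sample being the highest.

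**Figure D4:**
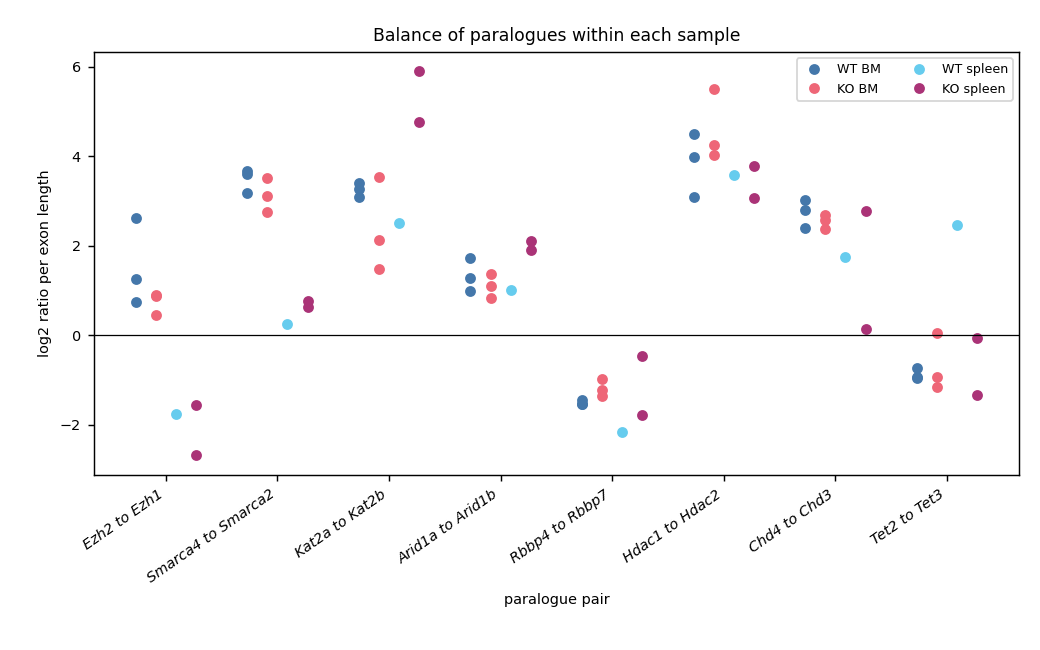
Log2 ratio of CPM per exon length (vertical axis) for 8 paralogue pairs in each sample, coloured by genotype and tissue. The spleen points of Ezh2 to Ezh1 (-2.68 to -1.57) and of Smarca4 to Smarca2 (0.26 to 0.77) lie below all BM points, and the other 6 pairs overlap.

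Markers of T cells, NK cells, erythroid cells, neutrophils and division differed between the tissues compared above. Those of B cells (0 of 6 genes) and of plasmacytoid DCs (0 of 5 genes) did not pass the threshold. Plasmacytoid DC sums were 566 to 855 CPM in BM and 429 to 944 CPM in spleen. T cell sums were 709 CPM in WT spleen and 1053 and 3404 CPM in DNGR-1 KO spleen, erythroid sums were 5082, 30481 and 9687 CPM, and proliferation sums were 268, 490 and 402 CPM in the same order. Their part in the results for Ezh2, Smarca4, Smarcc1, Rbbp4, Rbbp7 and Kdm6b was not tested.

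In BM, where the question was whether pre-cDCs that lack DNGR-1 differ from WT, 0 of 49 chromatin regulators passed the threshold (edgeR's quasi-likelihood test over the 6 BM samples), against 0.0307% of the 13016 genes tested (4 genes, and 0.0154% in each direction). At an unadjusted p under 0.05 the count was also 0 of 49, against 3.83% of all genes. It was 2 of 49 by DESeq2 and 2 by limma-voom. The count was 3 with the replicate block, without a filter on low counts, on the deposited log2 values and without WT BM sample 3. Without DNGR-1 KO BM sample 1 it was 4, and in the other alternatives it was 0. The 3.83% belongs to the main fit. No share of all genes is given for the alternatives, so their counts cannot be set against a background. In the main fit the smallest unadjusted p was 0.066, for Hdac6, and the smallest adjusted p of the 49 was 0.861. The median log2 difference, DNGR-1 KO minus WT, was -0.03 over the 49 genes and -0.0045 over all genes. The standard errors ran from 0.20 to 0.92 with a median of 0.26. Of the 49, 42 differed by a log2 value under 0.5 (85.7%), against 72.6% of all genes. That no member passed does not show that the genotypes are alike.

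By level, Ing3 and Hdac5 were higher in every DNGR-1 KO than in every WT BM sample (2 of 49, against 5.12% of all genes), and Smarcb1 was lower (1 of 49, against 4.39%). The log2 differences were 0.37 (SE 0.24) for Ing3, 0.54 (SE 0.28) for Hdac5 and -0.18 (SE 0.20) for Smarcb1. The other ING genes differed by 0.21 (SE 0.23) for Ing1, -0.43 (SE 0.44) for Ing2, -0.07 (SE 0.21) for Ing4 and -0.00 (SE 0.27) for Ing5. The 7 members that differed by a log2 value over 0.5 were all HDAC genes, none past the threshold. Hdac11 differed by -1.27 (SE 0.92), from 4 to 41 counts, and Hdac7 by -1.03 (SE 0.50), with DNGR-1 KO BM sample 1 inside the WT range and samples 2 and 3 below it. Leaving out 1 sample gave -1.96 to -0.57 for Hdac11 and -1.96 to -0.67 for Hdac7, with the lower end reached in both when DNGR-1 KO BM sample 1 was dropped. The upper end came from dropping WT BM sample 3 for Hdac11 and DNGR-1 KO BM sample 3 for Hdac7. Hdac6 differed by 0.85 (SE 0.41), and by 0.49 without WT BM sample 1 and 1.35 without WT BM sample 3. Hdac8 differed by -0.67 (SE 0.40), with -1.16 when DNGR-1 KO BM sample 1 was dropped and -0.33 when DNGR-1 KO BM sample 3 was. Hdac9 differed by 0.66 (SE 0.32) and Hdac2 by -0.55 (SE 0.38). For the 6 genes that differed between tissues, the differences between genotypes in BM were -0.36 (SE 0.24) for Ezh2, -0.06 (SE 0.24) for Smarca4, -0.33 (SE 0.24) for Smarcc1, 0.22 (SE 0.21) for Rbbp4, -0.10 (SE 0.20) for Rbbp7 and -0.28 (SE 0.37) for Kdm6b.

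In spleen, where a single WT sample allows no test between genotypes, the values are a description of these 3 libraries. In all, 3 members were at 3 counts or fewer in the WT spleen sample. Ing1 had 1 count in it, against 558 and 1059 in DNGR-1 KO spleen and 576 to 844 in BM. Suz12 had 1 count, against 274 and 491 in DNGR-1 KO spleen and 628 to 919 in BM. Hdac11 had 0 counts. The ratio of DNGR-1 KO to WT was 524 (95% counting interval 93.6 to 20730.4) and 757 (136 to 29943) for Ing1 in the 2 DNGR-1 KO samples. It was 257 (45.8 to 10198) and 351 (62.7 to 13898) for Suz12. The intervals cover counting error only. Of the 44 members with at least 100 counts in the 8 other samples, Ing1 and Suz12 were the 2 at 3 counts or fewer, beside 3.68% of all such genes. The library, in which genes with high counts elsewhere were missing more often than in any other sample, and the genotype cannot be told apart here.

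Of the 49 genes, 26 exceeded the WT spleen value in both DNGR-1 KO libraries (33.1% of all genes) and 9 lay below it in both (28.8% of all genes). Counting only genes for which the WT value lay further from both DNGR-1 KO values than these lay from each other, 15 were higher (19.7% of all genes) and 4, Ing3, Ing4, Hdac10 and Smarcb1, were lower (13.9% of all genes). Besides Ing1 and Suz12, the higher ones included Tet3, Setd2, Kat6a and Kmt2c, whose log2 differences on the log2(CPM + 0.5) scale were 1.91 to 2.89 in the 2 samples. Smarca4 was higher by 0.77 and 1.27, and Kdm6b by 0.97 and 1.36. Ing3 was lower, with differences of -1.11 and -1.36, as was Ing4, with -1.22 and -1.004. Ezh2 and Hdac1 lay between the DNGR-1 KO values. The WT sample had the lowest T cell sum of the 3 spleen samples, and the part of this in the values was not tested.

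**Figure D5:**
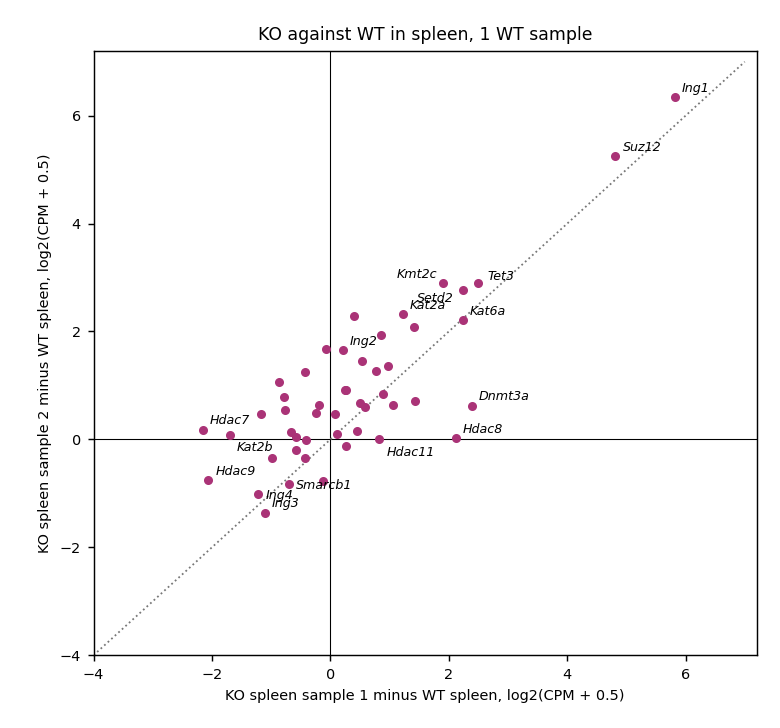
Difference of each DNGR-1 KO spleen sample from the single WT spleen sample in log2(CPM + 0.5), sample 1 on the horizontal and sample 2 on the vertical axis, 1 point per gene, with lines at 0 and a dotted line where both samples differ equally. Ing1 and Suz12 lie far to the upper right (4.81 to 6.34), Ing3 and Ing4 to the lower left, and Hdac8, Dnmt3a and Hdac7 differ between the DNGR-1 KO samples.

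The spread between samples set what could be seen. The median SD of log2(CPM + 0.5) over the 49 genes was 0.276 in the 6 BM samples, below the 0.408 of all genes tested, and 0.702 in the 3 spleen samples, near the 0.649 of all genes. For 41 of the 49 genes the spleen SD exceeded the BM SD, as for 69.95% of all genes, and the 2 DNGR-1 KO spleen samples differed from each other by a median of 0.655.

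Of 97 other chromatin regulators, drawn up by symbol, 10 passed between tissues: 9 were lower and 1 higher in spleen, against 12.3% and 7.28% of all genes. In BM 0 passed between genotypes, against 0.0307% of all genes, and 2 of 97 had an unadjusted p under 0.05, against 3.83% of all genes. The lower genes were Suv39h1, Uhrf1, Cbx2, Jade3, Dnmt1, Phf19, Brd3, Rcor1 and Rcor2. Jade3 and Rcor2 were at 0 CPM in every spleen sample, and Phf19 reached 0.111 CPM in DNGR-1 KO spleen sample 1 only. In BM Jade3 was at 6.21 to 9.79 CPM and Phf19 at 8.11 to 12.3 CPM. With spleen levels at or near 0, the size of these falls and that of Cbx2 cannot be given. Rcor2 was scarce in BM too (mean 0.822 CPM, and 0 CPM in WT BM sample 2), so its call rests on low counts in both tissues. Suv39h1, a heterochromatin H3K9 methyltransferase, fell from levels of 106 to 169 CPM in BM to levels of 12.3 to 20.9 CPM in spleen (log2 -3.23, SE 0.25, adjusted p = 7.5e-05). Uhrf1, which guides maintenance DNA methylation to replicated DNA, fell from levels of 133 to 347 CPM in BM to levels of 18.9 to 44.4 CPM in spleen (log2 -3.40, SE 0.39, adjusted p = 0.000623). Cbx2, a reader in Polycomb repressive complex 1, fell from 4.97 to 14.6 CPM to 0, 0 and 0.0423 CPM (adjusted p = 0.000636). Mta3, a NuRD subunit, was the gene that rose, from levels of 87.7 to 112 CPM in BM to levels of 127 to 184 CPM in spleen (log2 0.65, SE 0.18, adjusted p = 0.0354). The next by adjusted p among those with positive differences, Phf1 (log2 2.20, adjusted p = 0.0521) and Kmt2e (log2 0.63, adjusted p = 0.0835), did not pass. None of the 13 other SWI/SNF subunits and none of the 6 sirtuins passed.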

How the data were processed

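Bulk RNA-seq was measured in 9 pre-cDC samples (3 WT BM, 3 DNGR-1 KO BM, 1 WT spleen, 2 DNGR-1 KO spleen), grouped by the labels. RNA was total RNA after removal of ribosomal RNA, sequenced with DNBSEQ technology. The authors deposited expected counts for 51912 identifiers, without normalization, of which 25.6% of nonzero values were not whole, and log2-scale values of 20810 genes after a variance stabilizing transformation (floor 8.43). The submitters' processing notes name Trimmomatic 0.36, STAR 2.5.2, RSEM 1.3.0, DESeq2 1.18.1, R 3.4.3 and GRCm38; settings and strand were not given in the sources used here. Symbols came from GENCODE M21 (51719 identifiers matched), and promoter windows from RefSeq (42 of the 49 genes).

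After rounding, the expected counts were fitted with edgeR 4.0.16 in R 4.3.3 by its quasi-likelihood test, with TMM scaling, filterByExpr and p-values adjusted by Benjamini-Hochberg (threshold 0.05). Tissues were compared over 9 samples with genotype as a covariate, and genotypes over the 6 BM samples. The standard error was taken from the F statistic. CPM are TMM-normalized, and log2 levels used a pseudocount of 0.5. DESeq2 1.42.0, limma 3.58.1, other scalings and filters, the deposited log2 values, a chromosome 1 score (which the study regressed out and which runs with genotype), a replicate block, and each sample left out were alternatives. Leaving samples out of the paralogue ratios and of the spleen genotype counts was chosen after the data had been seen. The scripts were tested on simulated data with known changes. There the tissue fit, over 13468 genes, called 2 of 89 genes changed by a log2 value of 1 and 20 of 96 changed by 2. The BM genotype fit called 8 of 96 and 64 of 96. The genes listed as changed in that tissue fit were few, whereas 19.5% of all genes passed between tissues in the samples. These shares are therefore not the recovery to be had in the samples, which was not tested. A gene that did not pass may still differ. A total of 17103806 to 23722298 counts per sample puts 3 counts at 0.126 to 0.175 CPM; intervals cover counting error only.

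The 49 genes and the other lists were chosen by symbol with earlier results of these data known, so they are not independent of them. All 49 genes are reported, with values in every sample for those past the threshold and for the ING and HDAC families. Of the 97 other chromatin regulators, the 3 with the lowest adjusted p in each direction are given, with levels also for Jade3, Phf19 and Rcor2.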

Additional observations from a re-analysis of the deposited data

Results flagged for a closer look

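In BM, 5 of the 49 genes had 1 sample further from the other 5 than Dixon's 95% criterion allows, and in each it was WT BM sample 1; chance gives about 1 such case in 20 genes. Of all genes tested, 9.52% had such a sample, and for 5.79% it was WT BM sample 1. The gap to the nearest sample, as a share of the range of log2(CPM + 0.5) over the 6 BM samples, was 0.740 for Kat7, 0.861 for Arid1b and 0.748 for Ezh1, in which this sample was the lowest. It was 0.656 for Smarcb1 and 0.629 for Eed, in which this sample was the highest. Levels in that sample were 64.1 CPM for Kat7, 32.1 CPM for Arid1b and 17.3 CPM for Ezh1, against 155 to 211 CPM, 55.1 to 60.2 CPM and 42.5 to 57.3 CPM in the other 5. The sample was the lowest of the 6 for 15 of the 49 genes, and for 28.8% of all genes tested, and the highest for 9 of the 49 and for 27.6% of all genes. DNGR-1 KO BM sample 3 was the lowest for 18 of the 49 (19.3% of all genes), and DNGR-1 KO BM sample 2 was the highest for 17 (21.4% of all genes).

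Ing3 differed in direction between tissues. In BM all 3 DNGR-1 KO samples were above all WT samples, with a log2 difference of 0.37, and in spleen both DNGR-1 KO samples were below the single WT sample. The difference between the tissues was not tested, and it rests on 1 WT spleen sample.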

How the results depend on the processing

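Ezh2 and Smarca4 passed the threshold between tissues in 21 of 21 alternatives, Smarcc1 in 20, Rbbp4 and Rbbp7 in 18 and Kdm6b in 13, and all 6 kept their direction in each. The share of all genes tested that passed, in either direction, was 19.5% in the main fit. It was 29.3% with DESeq2, 25.2% with limma-voom and 23.8% without the genotype term. With at least 10 counts in every sample it was 20.5%, and without a filter on low counts 11.3%. In DNGR-1 KO samples alone it was 9.95%, and with the replicate block 9.25%. The number of members higher in spleen (1) was 3 with DESeq2 or without the genotype term. It was 2 with limma-voom or with at least 10 counts in every sample, and 0 without a filter on low counts or with the replicate block. The number lower (5) was 11 with DESeq2, 8 without the genotype term, 3 in DNGR-1 KO samples alone (Kat7, Smarca4 and Ezh2) and 3 with the block (Smarca4, Smarcc1 and Ezh2). Leaving out 1 sample gave 0 to 2 higher and 4 to 8 lower. Between genotypes in BM the counts were 0 and 0 in every alternative, the replicate block and the chromosome 1 score included. Among the other regulators, the counts of 1 higher and 9 lower were 3 and 15 with DESeq2, the higher count was 0 with the block and in DNGR-1 KO samples alone, and leaving out 1 sample gave 0 to 3 higher and 7 to 14 lower. The cause of these shifts was not tested.

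Some genes that did not pass changed sign between tissues. In DNGR-1 KO samples alone the log2 differences were -0.36 for Ing3, -0.25 for Ing4, -0.0925 for Hdac5 and -0.23 for Hdac9. Hdac2 was at -0.20 with the block and Hdac5 at -0.0070 with total counts only. Leaving out 1 sample gave -1.81 to 0.00083 for Ing1, -0.36 to 0.60 for Ing3, -0.25 to 0.38 for Ing4 and -0.0108 to 0.24 for Ing5. It gave -0.30 to 0.44 for Hdac2, -0.0158 to 0.92 for Hdac4, -0.0898 to 0.27 for Hdac5, -1.04 to 0.36 for Hdac7 and -0.22 to 1.11 for Hdac9.

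Of the genes at 3 counts or fewer in WT spleen (3), 1 was at 0 counts. The number higher in both DNGR-1 KO spleen samples was 28 to 38 when only 1 of them was compared. On the deposited log2 values the change of the paralogue ratio, spleen minus BM, was -1.94 for Ezh2 to Ezh1, -1.69 for Smarca4 to Smarca2 and 0.32 for Kat2a to Kat2b. Leaving out 1 sample gave -3.37 to -2.81 for Ezh2 to Ezh1, -2.86 to -2.60 for Smarca4 to Smarca2, 0.81 to 2.51 for Kat2a to Kat2b, 0.25 to 0.79 for Arid1a to Arid1b, -0.63 to 0.22 for Rbbp4 to Rbbp7, -0.97 to -0.49 for Hdac1 to Hdac2, -1.70 to -0.37 for Chd4 to Chd3 and 0.09 to 1.98 for Tet2 to Tet3.

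The sources used here do not say whether a replicate number marks a shared pool of mice, and the fit without the block is the one reported. Over the genes tested, the deviations of BM samples 1, 2 and 3 from their genotype means correlated between WT and DNGR-1 KO at 0.103, 0.0989 and -0.0813, and not every sample correlated best with its own number. Counts of the neutrophil gene S100a8 did go with the number, at 2995, 227 and 831 in WT BM samples 1, 2 and 3 and 3297, 293 and 818 in DNGR-1 KO BM. So did S100a9, at 2373, 222 and 792 in WT BM and 2855, 268 and 865 in DNGR-1 KO BM. Camp did too, at 1173, 92 and 378 in WT BM and 1532, 172 and 665 in DNGR-1 KO BM. The erythroid gene Klf1 did not, at 5625, 4153 and 2722 in WT BM and 3835, 233 and 833 in DNGR-1 KO BM. The WT spleen arm of 1 sample, the cell mixture of the spleen samples, and 3 samples per BM group limit these comparisons.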
